A study of Mus musculus with 6 samples.

Results

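The sestrin genes, the REDD1 genes and other regulators of mTORC1 form a set of 10 genes, taken from the deposited table by their symbols out of 54532 genes: *Sesn1*, *Sesn2*, *Sesn3*, *Ddit4*, *Ddit4l*, *Deptor*, *Tsc1*, *Tsc2*, *Rragd* and *Flcn*. Their RNA was measured by sequencing of polyadenylated RNA in granulosa cells of the mouse ovary, which surround and feed the oocyte. Cultures received cyclophosphamide, an alkylating chemotherapy drug, for 24 h (3 libraries) or no treatment (3 libraries), and all 6 libraries are labelled wild type, from granulosa cells entered as a cell line with no further name. The sample labels name an intraperitoneal injection for the treated libraries, while the protocol has the drug put into adherent cultures in DMEM/F12 with fetal bovine serum, as an in vitro model of premature ovarian failure. The dose, the strain and age of the mice, and whether libraries came from separate cultures are not stated in the labels, so p-values measure only the spread between these libraries, which may be technical.

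mTORC1 is the protein kinase complex that drives protein synthesis and cell growth and holds back autophagy when amino acids, growth factors and energy suffice. Sestrins bind GATOR2, a complex that lets amino acids activate the Rag GTPases at the lysosome, and sestrin 2 releases GATOR2 when it binds leucine. REDD1, the product of *Ddit4*, acts instead through the TSC complex, which switches off Rheb, the small GTPase that activates mTORC1, and DEPTOR binds mTOR itself. Granulosa cells use this pathway in the growth of follicles and in the choice between dormant and activated follicles. The name of mTORC1 restraint is not exact for every gene of the set. RagD, encoded by *Rragd*, and folliculin, encoded by *Flcn*, take part in the amino acid signal to mTORC1 and in the phosphorylation of TFEB, a transcription factor of lysosome genes.

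The promoters of *Ddit4*, *Sesn2* and *Flcn* are shown because these 3 genes had the largest rises of the set. *Deptor* fell by as much as *Flcn* rose (log2 fold change -1.72 against 1.72) but had no matching window. The RefSeq windows (build GRCm38.p6) run from 250 bases before to 50 bases after the start site, and 9 of the 10 genes matched, with 10 windows. Each is printed 5′ to 3′ on the gene's strand, and capitals mark every match to the searched motifs, some of which match on the opposite strand. The *Ddit4* window is chr10:59951721-59952020, the *Sesn2* window chr4:132510407-132510706 and the *Flcn* window chr11:59809990-59810289, all on the minus strand.
Ddit4: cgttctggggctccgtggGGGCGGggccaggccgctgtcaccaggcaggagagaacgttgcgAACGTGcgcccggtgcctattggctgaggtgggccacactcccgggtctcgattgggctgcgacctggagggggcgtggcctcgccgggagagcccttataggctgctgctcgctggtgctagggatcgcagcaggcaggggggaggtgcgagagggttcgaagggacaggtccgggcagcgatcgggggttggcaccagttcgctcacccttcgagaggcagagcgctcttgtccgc
Sesn2: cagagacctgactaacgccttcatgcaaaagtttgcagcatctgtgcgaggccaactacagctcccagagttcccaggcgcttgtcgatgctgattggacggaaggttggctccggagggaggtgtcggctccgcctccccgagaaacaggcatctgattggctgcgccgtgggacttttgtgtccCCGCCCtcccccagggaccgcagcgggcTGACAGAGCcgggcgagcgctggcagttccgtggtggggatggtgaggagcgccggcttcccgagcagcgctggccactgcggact
Flcn: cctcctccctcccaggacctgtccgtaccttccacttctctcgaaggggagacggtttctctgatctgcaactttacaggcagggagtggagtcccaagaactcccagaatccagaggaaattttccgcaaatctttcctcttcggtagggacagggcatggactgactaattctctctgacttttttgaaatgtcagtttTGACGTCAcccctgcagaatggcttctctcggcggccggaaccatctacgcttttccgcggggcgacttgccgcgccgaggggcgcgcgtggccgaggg

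The search covered both strands, and the shares are those of 32851 mouse promoter windows of the same length. The motif of ATF4 with C/EBP, TGATGNAA, was in 3.97% of all windows, and the cyclic AMP response element, TGACGTCA, in 1.79%. The core of the antioxidant element bound by NRF2, TGACNNNGC, was in 12.4%. An E-box, spelled CACGTG, was in 7.15% of them. A hypoxia element core, for which NACGTG was searched and which every E-box also matches, was in 19.6%. For FOXO factors the search used TGTTTAC, found in 3.65% of windows. A GC box, with the letters GGGCGG, was in 35.7%. The TATA box was searched as TATAAA and was in 13.6%. None of the windows of the set held the ATF4 motif or an E-box. The *Ddit4* window held a hypoxia core whose first base lies 188 bases before the start site and a GC box 232 bases before it. *Sesn2* had an antioxidant core 36 bases before the start and a GC box on the opposite strand 64 bases before it. *Flcn* had a cyclic AMP response element 49 bases before the start. The last 50 bases of the *Flcn* and *Rragd* windows were not found in a GENCODE transcript of these genes, so the *Flcn* distance holds for the RefSeq start site. Both windows of *Sesn1* and the window of *Sesn3* held GC boxes, 4 in each *Sesn1* window and 2 in that of *Sesn3*, and a FOXO motif began 23 bases after the upstream *Sesn1* start site. The *Ddit4l* window held an antioxidant core 46 bases before the start, 2 GC boxes and a TATA box, while those of *Rragd*, *Tsc1* and *Tsc2* held none of these letters. These matches are descriptions of the sequence and not evidence of binding.

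Libraries held 16689902 to 17275338 reads with cyclophosphamide and 16458385 to 17607586 without, as recovered from the deposited FPKM (fragments per kilobase of exon, scaled per library), and the first principal component, with 86.8% of the variance, set the groups apart. The cells were checked against marker genes. Over all tested genes 33.1% were higher and 35.8% lower at the threshold given below, so counts over few markers say little. Of 12 granulosa markers 10 passed the filter on low values and all 10 fell, with a summed level of 1051.5 to 1366.7 FPKM in cyclophosphamide libraries and 2887.9 to 3071.5 FPKM in untreated libraries. *Amh* held 1 to 11 reads with cyclophosphamide and 3 to 7 without, and *Cyp19a1*, the aromatase gene, at most 1 read with cyclophosphamide and at most 2 without, so these defining markers were near 0 in both groups. Summed markers of macrophages and leukocytes were 11.5 to 15.3 FPKM with cyclophosphamide and 7.19 to 8.25 FPKM without, with 3 of 4 measured higher and 1 lower, and *Ptprc*, which defines leukocytes, at 0 to 7 reads with cyclophosphamide and 1 to 5 reads without. Oocyte markers summed to 3.12 to 4.18 FPKM with cyclophosphamide and 0.67 to 0.94 FPKM without, with both of the 2 measured of 10 higher, and endothelial markers to 2.09 to 2.68 FPKM with cyclophosphamide and 0.74 to 1.01 FPKM without, with 1 of 3 measured higher. Markers of smooth muscle and pericytes summed to 15.8 to 26.3 FPKM with cyclophosphamide and 89.9 to 101 FPKM without (2 of 8 measured higher, 5 lower), those of surface epithelium to 50.2 to 73.2 FPKM with cyclophosphamide and 106 to 120 FPKM without (4 of 5 measured lower), and those of theca and stroma to 7.92 to 9.40 FPKM with cyclophosphamide and 25.1 to 31.1 FPKM without (2 of 4 measured lower). Several of these sums rest on few genes. *Krt8* and *Krt18* made up most of the surface epithelium sum, with *Upk3b* at 0.05 to 0.75 FPKM over all libraries. *Acta2* made up most of the smooth muscle sum without treatment (78.5 to 89.0 FPKM). *Esam* made up most of the endothelial sum with cyclophosphamide (1.67 to 2.00 FPKM), and *Gdf9* and *Ooep* most of the oocyte sum. No marker was at 0 in all 6 libraries. Their part in the results below was not tested, and in bulk RNA fewer cells of a type and less RNA per cell cannot be told apart.

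All 10 genes passed the filter, with 205 to 8165 reads in any library. By limma on log2(FPKM + 0.1) over 14885 genes, 6 rose (*Ddit4*, *Sesn2*, *Flcn*, *Rragd*, *Ddit4l* and *Tsc1*), 3 fell (*Deptor*, *Sesn3* and *Sesn1*) and *Tsc2* was not called, at a Benjamini-Hochberg adjusted p under 0.05. The 2 groups did not overlap for 9 of the 10 genes. Across the transcriptome 68.9% of genes were called, 33.1% higher and 35.8% lower, and 73.1% had groups that did not overlap. With so many genes called, a count of 9 of 10 says little about the set. The median log2 fold change over the 10 genes was 0.58, and over all genes it was -0.02. *Ddit4* ranked 44 and *Sesn2* 79 of 14885 genes by their rise.

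**Figure D1:**
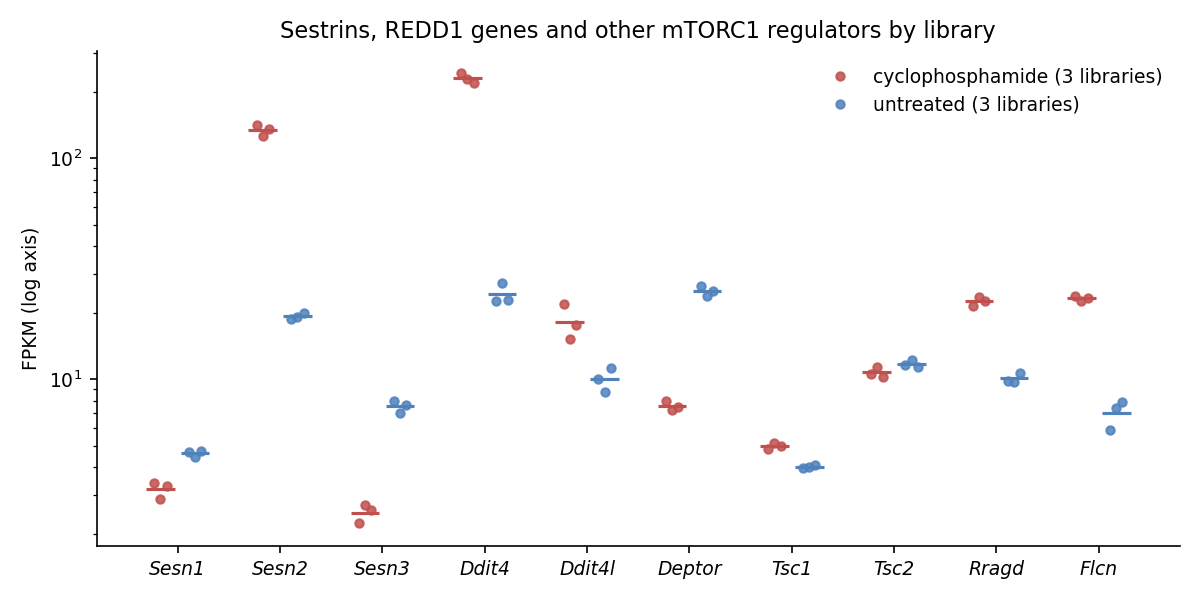
FPKM on a log axis for each of the 10 genes, with 3 cyclophosphamide libraries (red, left) and 3 untreated libraries (blue, right) as points and the group mean as a line. *Ddit4* lay between 219 and 243 FPKM with cyclophosphamide and between 22.6 and 27.3 FPKM without, and *Tsc2* was the only gene whose groups overlapped.

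Among the sestrins, *Sesn2* rose while *Sesn1* and *Sesn3* fell. *Sesn2*, a leucine sensor and a known target of ATF4, NRF2 and p53, had 142, 127 and 136 FPKM in the cyclophosphamide libraries, against 18.664, 19.207 and 20.004 FPKM in the untreated libraries. Every treated library was more than 100 FPKM above every untreated one. The means were 135 ± 7.63 FPKM with cyclophosphamide and 19.3 ± 0.67 FPKM without (SD, n = 3 each), a ratio of 6.99, and the log2 fold change was 2.80 ± 0.07 (SE, limma, adjusted p = 1.2e-07). *Sesn2* (ENSMUSG00000028893) lies on chromosome 4 from 132492032 to 132510501, in the coordinates of the table read as GRCm38,. The antisense gene *Gm12981*, which the table places on the same strand, overlaps it over 6089 bases with 49 to 71 reads in cyclophosphamide libraries and 1 to 7 in untreated libraries, while *Sesn2* had 7891 to 8165 reads with cyclophosphamide and 1060 to 1175 without. How reads were split between the overlapping genes is not stated.

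*Sesn3*, known as a target of FOXO factors, changed in the other direction. It had 2.23, 2.68 and 2.56 FPKM with cyclophosphamide, against 7.95, 7.03 and 7.65 FPKM without. The treated libraries were all below the untreated ones, at a ratio of means of 0.33 (log2 fold change -1.56 ± 0.11, limma, adjusted p = 8.4e-06). *Sesn3* (ENSMUSG00000032009) lies on chromosome 9 from 14275067 to 14333101, and its exons cover 15269 bases, against 3475 bases for *Sesn2* and 3982 for *Sesn1*. *Sesn1*, first known as a p53-induced gene, had 3.37, 2.87 and 3.29 FPKM with cyclophosphamide, against 4.69, 4.45 and 4.71 FPKM without. The groups did not overlap, although the change was the smallest of the 3 sestrins (log2 fold change -0.53 ± 0.10, limma, adjusted p = 0.0021). *Sesn1* (ENSMUSG00000038332) lies on chromosome 10 from 41809935 to 41908424, and its reads, 205 to 226 with cyclophosphamide and 305 to 317 without, were the fewest of the 10 genes.

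The family as a whole held more RNA with a different makeup. Summed over the 3 genes, sestrin RNA was 147, 132 and 142 FPKM in cyclophosphamide libraries and 31.3, 30.7 and 32.4 FPKM in untreated libraries. *Sesn2* made up 96.2%, 95.8% and 95.9% of that sum with cyclophosphamide, against 59.6%, 62.6% and 61.8% without, a difference of 34.6 percentage points. The share of *Sesn3* was 1.78% ± 0.26 with cyclophosphamide and 24.0% ± 1.28 without (SD, n = 3 each), and that of *Sesn1* 2.26% ± 0.08 with cyclophosphamide and 14.7% ± 0.26 without. For the sum and for the share of *Sesn2*, the exact two-sided permutation test over libraries gave p = 0.1, the smallest value that 3 libraries against 3 allow. Counted in reads, which weigh the long *Sesn3* transcript more, the share of *Sesn2* was 90.2% ± 0.93 with cyclophosphamide and 33.4% ± 1.62 without.

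**Figure D2:**
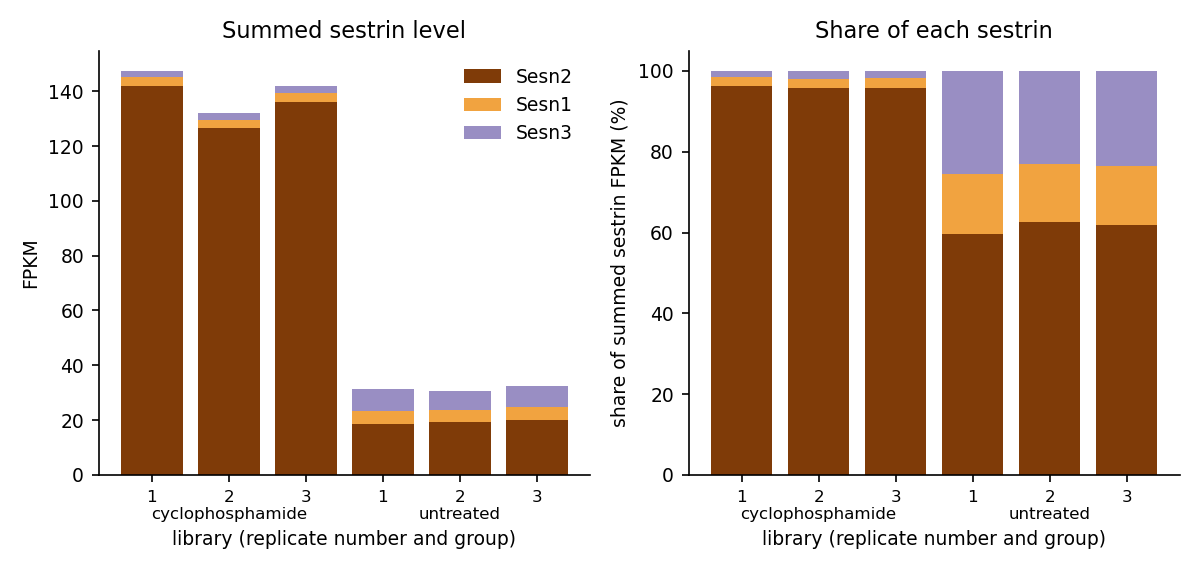
Summed FPKM of the 3 sestrin genes (left) and the share of each gene in that sum in percent (right), per library, with cyclophosphamide libraries left of untreated ones. The bars reach 132 to 147 FPKM with cyclophosphamide and 30.7 to 32.4 FPKM without, and *Sesn2* fills most of every bar.

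Both REDD genes rose, *Ddit4* more than its relative. *Ddit4* encodes REDD1, which is known to be induced by hypoxia, DNA damage, glucocorticoids and endoplasmic reticulum stress. It had 243, 229 and 219 FPKM with cyclophosphamide, against 22.6, 27.3 and 22.8 FPKM without. This was the largest change of the 10 genes, with means of 230 ± 11.6 FPKM with cyclophosphamide and 24.2 ± 2.64 FPKM without (SD, n = 3 each), a ratio of 9.50 and a change of 3.25 in log2 ± 0.09 (SE, limma, adjusted p = 2.7e-07). *Ddit4* (ENSMUSG00000020108), on chromosome 10 from 59949669 to 59951834, is protein-coding like the other 9 genes. *Ddit4l*, which encodes REDD2, had 21.8, 15.3 and 17.5 FPKM with cyclophosphamide, against 10.0, 8.74 and 11.3 FPKM without. The treated libraries were all higher and the log2 fold change was 0.85 ± 0.14, the largest SE of the set (limma, adjusted p = 0.00096). It lies on chromosome 3 from 137621612 to 137628333 (ENSMUSG00000046818). *Ddit4* held 92.7% ± 0.999 of the FPKM of the pair with cyclophosphamide and 70.6% ± 4.56 without (SD, n = 3 each), a ratio chosen after the values were seen.

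*Deptor*, the inhibitor that binds mTOR in both of its complexes, was the gene of the set that fell most. It had 7.97, 7.23 and 7.51 FPKM with cyclophosphamide, against 26.5, 23.8 and 25.1 FPKM without. The treated libraries lay at less than 8 FPKM and the untreated ones above 23 FPKM, with a ratio of means of 0.30 and a log2 fold change of -1.72 ± 0.07 (SE, limma, adjusted p = 1.1e-06). *Deptor* (ENSMUSG00000022419) spans 147 kb of chromosome 15 from 55112317 to 55259271. These levels rest on 1150 to 1165 reads in cyclophosphamide libraries and 3686 to 3848 reads in untreated libraries.

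*Tsc1* and *Tsc2* changed least of the 10 genes. *Tsc1* encodes hamartin, which stabilises the complex, and had 4.83, 5.12 and 4.99 FPKM with cyclophosphamide, against 3.97, 3.99 and 4.08 FPKM without. The groups did not overlap, with a log2 fold change of 0.30 ± 0.08 (SE, limma, adjusted p = 0.013). *Tsc2* encodes tuberin, the subunit that acts on Rheb, and had 10.6, 11.3 and 10.3 FPKM with cyclophosphamide, against 11.5, 12.2 and 11.3 FPKM without. Its groups overlapped, and its log2 fold change of -0.12 ± 0.07 was not called (limma, adjusted p = 0.15). Both values depended on the scaling between libraries. With an equal upper quartile of FPKM, which moved the median of all genes to -0.13 on the log2 scale, *Tsc1* was at 0.19 (limma, adjusted p = 0.088, with 0.0016 to 0.090 over all 16 alternatives) and *Tsc2* at -0.24 (limma, adjusted p = 0.021, with 0.021 to 0.37). Relative to that median they stood at 0.32 and -0.11, close to 0.33 and -0.10 with the deposited scaling. *Tsc1* (ENSMUSG00000026812) lies on chromosome 2 from 28641228 to 28691167 and *Tsc2* (ENSMUSG00000002496) on chromosome 17 from 24595816 to 24632630. *Tsc2* shares 693 bases with *Pkd1* on the opposite strand, which had 14.8 to 19.3 FPKM with cyclophosphamide and 12.7 to 13.0 FPKM without, and without a stated strand setting reads from that stretch cannot be told apart. Genes that overlap *Sesn1*, *Deptor* and *Rragd* held at most 7 reads in any library.

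*Flcn* and *Rragd*, the genes of the lysosomal amino acid branch, both rose. *Flcn* encodes folliculin, the GTPase-activating protein of RagC and RagD, and had 23.7, 22.6 and 23.4 FPKM with cyclophosphamide, against 5.86, 7.40 and 7.84 FPKM without. The treated libraries lay close together and above the untreated ones, with a ratio of means of 3.30 and a log2 fold change of 1.72 ± 0.11 (SE, limma, adjusted p = 6e-06). *Rragd*, a Rag GTPase that is itself a known TFEB target, had 21.4, 23.6 and 22.7 FPKM with cyclophosphamide, against 9.79, 9.70 and 10.7 FPKM without. Its groups were again apart, with a ratio of 2.24 and a change of 1.16 ± 0.07 in log2 (SE, limma, adjusted p = 5.3e-06). The gene of RagC, the close relative of RagD, changed less, with *Rragc* at 0.63 ± 0.08 in log2 (SE). *Rragd* held 31.0% ± 2.90 of the summed *Rragc* and *Rragd* FPKM with cyclophosphamide and 23.7% ± 1.08 without (SD, n = 3 each), a share chosen after the values were seen. *Flcn* (ENSMUSG00000032633) lies on chromosome 11 from 59791408 to 59810016 and *Rragd* (ENSMUSG00000028278) on chromosome 4 from 32983037 to 33022180.

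**Figure D3:**
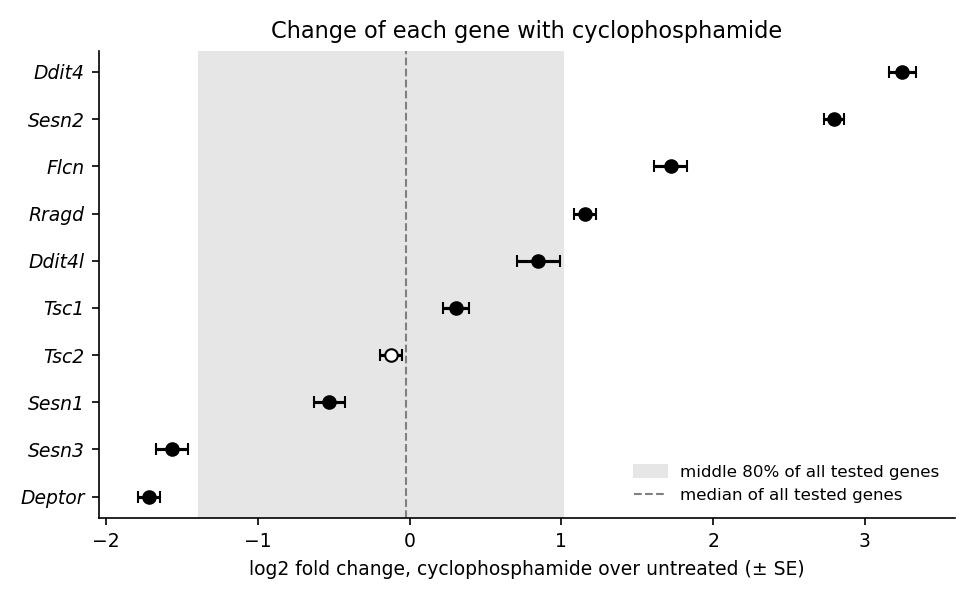
Log2 fold change of each gene, cyclophosphamide over untreated, with its SE; filled points were called and the open point, *Tsc2*, was not. The grey band runs from the lowest to the highest decile of all tested genes (from -1.39 to 1.01). *Ddit4*, *Sesn2*, *Flcn* and *Rragd* lie above it and *Sesn3* and *Deptor* below it.

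The order of the levels per exon length differed between the groups. With cyclophosphamide it ran from *Ddit4* (230 FPKM) through *Sesn2* (135), *Flcn* (23.2), *Rragd* (22.6), *Ddit4l* (18.2), *Tsc2* (10.7), *Deptor* (7.57), *Tsc1* (4.98) and *Sesn1* (3.18) to *Sesn3* (2.49). The ranges of *Flcn* and *Rragd* and of *Rragd* and *Ddit4l* overlapped, and all other neighbours were apart. Without treatment it ran from *Deptor* (25.1 FPKM) through *Ddit4* (24.2), *Sesn2* (19.3), *Tsc2* (11.7), *Rragd* (10.1), *Ddit4l* (10.0), *Sesn3* (7.54), *Flcn* (7.03) and *Sesn1* (4.61) to *Tsc1* (4.01). Here the ranges of *Deptor* and *Ddit4*, of *Rragd* and *Ddit4l*, and of *Sesn3* and *Flcn* overlapped. *Ddit4* and *Sesn2* stood at the 99.2 and 98.2 percentiles of all tested genes with cyclophosphamide and at the 84.9 and 80.8 percentiles without.

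The genes that fell are those with the longest spans on the chromosome. *Deptor* spans 147 kb, *Sesn1* 98.5 kb and *Sesn3* 58.0 kb, while the 7 other genes span from 2.17 kb (*Ddit4*) to 49.9 kb (*Tsc1*). Over all tested genes, the 1832 that span 100 kb or more had a median log2 fold change of -0.66, with 62.0% lower and 16.3% higher. The 1925 genes of 50 to 100 kb had a median of -0.03 with 38.3% lower, and the 7392 genes under 20 kb one of 0.06 with 30.4% lower. *Deptor*, at -1.72, fell further than the median of its span class, as did *Sesn3* at -1.56 and *Sesn1* at -0.53. The part of span in these changes was not tested.

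The rest of the pathway moved in both directions. Over 14 lists of genes around mTORC1 and of the factors that act on the sestrins and REDD1, 150 genes were measured, of which 79 rose and 41 fell (80% called, against 68.9% of all genes), with a median log2 fold change of 0.31 against -0.02. Among 10 subunits and chaperones of the mTOR complexes 3 rose and 5 fell (80% called, median -0.21). *Rictor*, the scaffold of mTORC2, rose by 0.84 ± 0.09 (log2 fold change ± SE, as in the rest of these lists) and *Mapkap1*, another mTORC2 subunit, had a value of -0.70 ± 0.07. *Mtor* itself had 10.4 FPKM with cyclophosphamide and 11.0 FPKM without and was not called.

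The nutrient sensing genes moved in both directions, and the difference between their lists was not tested. Of 10 measured genes in the list of GATOR1, KICSTOR and the nutrient sensors, which restrain mTORC1, 5 fell and 1 rose (60% called, median -0.37). The 5 that fell include *Tbc1d7*, a gene of the TSC complex (-0.65 ± 0.11, named after its value was seen). *Castor2*, a relative of the arginine sensor, had a value of -1.69 ± 0.10, *Depdc5*, a GATOR1 subunit, -1.18 ± 0.14, and *Castor1*, the arginine sensor, rose by 0.43 ± 0.08. Among 18 genes of GATOR2, the Rag and Ragulator complexes and Rheb, which promote mTORC1 signalling or carry it, 8 rose and 4 fell (66.7% called, median 0.26). Neither share is above the 68.9% of all genes. *Fnip1*, the partner of folliculin, rose by 1.78 ± 0.10, close to *Flcn* at 1.72 ± 0.11, and *Wdr24*, a GATOR2 subunit, rose by 0.80 ± 0.07.

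Kinases upstream of the TSC complex were also mixed. Of 11 measured AMPK and LKB1 genes 5 rose and 3 fell (72.7% called, against 68.9% of all genes, median 0.11). The catalytic subunit gene *Prkaa2* was at 2.00 ± 0.08 and the regulatory subunit gene *Prkag2* at -1.39 ± 0.09. Of 15 measured genes of PI3K and AKT input 5 rose and 8 fell (86.7% called, median -0.24). *Pik3r1*, the regulatory subunit of PI3K, had 7.11 FPKM with cyclophosphamide and 37.6 FPKM without (-2.41 ± 0.13). Among 17 measured substrates and outputs of mTORC1 10 rose and 3 fell (76.5% called, median 0.39). These are RNA levels, and the activity of mTORC1 was not measured. The smallest p-values were those of *Lpin1*, a phosphatidate phosphatase that mTORC1 phosphorylates, at 1.81 ± 0.10 and *Grb10*, a growth factor adaptor and mTORC1 substrate, at 1.18 ± 0.09.

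**Figure D4:**
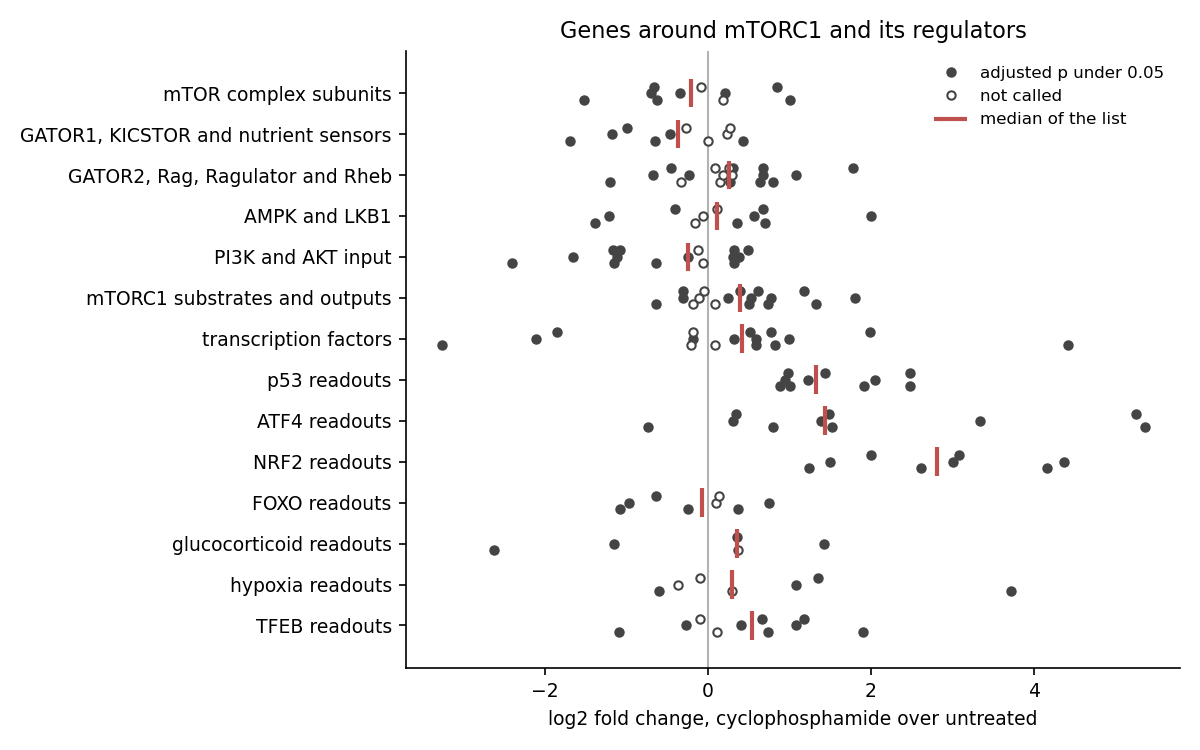
Log2 fold change, cyclophosphamide over untreated, of each measured gene in 14 lists, with filled points for genes called at an adjusted p under 0.05, open points for the others and a red line at the median. The lists of p53, ATF4 and NRF2 readouts have medians of 1.33, 1.43 and 2.82, and the other lists lie between -0.37 and 0.53.

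Transcription factors known to act on these genes, and their other targets, were set beside them. Of 16 factors 9 rose and 4 fell (81.2% called, against 68.9% of all genes, median 0.42). *Ddit3*, which encodes CHOP, rose by 4.42 ± 0.06 and *Foxo1* fell to 5.25 FPKM in cyclophosphamide libraries, against 23.1 FPKM in untreated libraries (-2.11 ± 0.10). Named after their values were seen, *Atf4* had 407 FPKM with cyclophosphamide and 102 FPKM without (1.99 ± 0.10), *Trp53* 42.9 FPKM with cyclophosphamide and 34.2 FPKM without (0.32 ± 0.09), and *Foxo3* 41.4 FPKM with cyclophosphamide and 20.7 FPKM without (0.99 ± 0.08). Also named later, the other factors that fell were *Epas1*, with 0.30 FPKM with cyclophosphamide and 3.84 FPKM without (-3.27 ± 0.18), *Trp63* (-1.85 ± 0.19, at 0.27 FPKM without) and *Foxo4* (-0.18 ± 0.06). *Hif1a* was not called (-0.21 ± 0.09). The change of *Sesn3*, a FOXO target, thus stood beside a fall of *Foxo1* and a rise of *Foxo3*.

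Readouts of p53, ATF4 and NRF2, which are known inducers of *Sesn2*, rose with 1 exception. Over all tested genes 33.1% were called higher. All 10 p53 readouts rose (median 1.33), with *Btg2*, an antiproliferative gene, at 2.48 ± 0.09 and *Trp53inp1* at 1.91 ± 0.09. *Sesn1*, first known as a p53-induced gene, fell (-0.53 ± 0.10). Of 10 ATF4 readouts 9 rose (median 1.43), with the pseudokinase gene *Trib3* at 5.36 ± 0.07 and the cystine importer gene *Slc7a11* at 5.25 ± 0.10, and *Nupr1* fell (-0.74 ± 0.11). All 8 NRF2 readouts rose (median 2.82), with *Srxn1*, which encodes sulfiredoxin, at 4.16 ± 0.07 and *Gclc*, of glutathione synthesis, at 3.01 ± 0.06. These lists were drawn up with earlier results of these data known and are not independent evidence of a direction.

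Readouts of other inducers of genes of the set were mixed. Among 5 measured glucocorticoid readouts 2 rose and 2 fell (80% called, against 68.9% of all genes). *Klf9* was at 1.43 ± 0.07, the kinase gene *Sgk1* at -2.63 ± 0.11 and *Fkbp5*, a chaperone of steroid receptors, at -1.15 ± 0.06. Among 7 measured hypoxia readouts 3 rose and 1 fell (57.1% called). *Vegfa*, the angiogenic factor, was at 3.72 ± 0.06, *Ndrg1* at 1.35 ± 0.14 and *Bnip3*, a mitophagy receptor, at -0.60 ± 0.11. Of 8 FOXO readouts 2 rose, *Bcl6* (0.75 ± 0.12) and *Ccng2* (0.37 ± 0.07), and 4 fell (75% called), with *Pik3ip1* at -0.97 ± 0.08 and *Cited2* at -1.08 ± 0.15. The count of 4 was 3 when any library was left out. TFEB readouts, which share a known inducer with *Rragd* and *Flcn*, were higher in 6 of 10 cases (80% called, median 0.53), with the autophagy receptor gene *Sqstm1* at 1.90 ± 0.13 and the proton pump subunit gene *Atp6v1h* at 1.18 ± 0.07. They were lower for *Gpnmb* (-1.09 ± 0.15) and *Mcoln1* (-0.27 ± 0.11), a count of 2 that was 1 when any library other than untreated replicate 2 was left out. *Tfeb* was not called, at 1.89 FPKM with cyclophosphamide and 1.76 FPKM without.

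The genes with the most similar profiles were sought for *Ddit4*, *Sesn2* and *Flcn*, among 10510 protein-coding genes, by the mean absolute difference of log2(FPKM + 0.1) over the 6 libraries, each centred on its untreated mean. Nearest to *Ddit4* was *Chac1*, a glutathione-degrading enzyme gene, with a mean difference of 0.08, followed by *Fam13a* (0.13). Nearest to *Sesn2* were the neutral amino acid transporter gene *Slc1a4* (0.05), the metallothionein gene *Mt1* (0.05) and *Cln8*, an endoplasmic reticulum protein gene (0.05). Nearest to *Flcn* were *Igsf9b* (0.07), the mitochondrial glutamate carrier gene *Slc25a22* (0.07) and the Frizzled receptor gene *Fzd9* (0.07). With 2 groups of 3 libraries this measure is small wherever the change between the groups has the same size.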

How the data were processed

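The authors deposited 1 table under a name that promises counts, but its values are FPKM, gene by gene and library by library. HISAT2 2.0.5, CASAVA and the build GRCm39 come from the submitters' processing notes. For the counting tool, strand setting and annotation no source used here gives a name. Of 54409 gene IDs shared with GENCODE M21 (GRCm38), 98.3% had equal starts and ends, so the coordinates were read as GRCm38. FPKM times gene length were whole multiples of 1 step in 100% of values (tolerance 0.01 of a read), which gave the reads. Per library, the total that the authors divided by was 0.975 to 1.04 of the sum of these reads, for which no source used here gives the reason.

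Genes with 10 reads in at least 3 libraries and 15 in all were tested on log2(FPKM + 0.1) with limma 3.58.1 (R 4.3.3), with a mean-variance trend and Benjamini-Hochberg adjustment over 14885 genes, two-sided. Fold changes on this scale understate those of low genes. The fit was also run on simulated data in which few genes changed, unlike these data, and the outcome is not reported here. Every gene of the set had at least 205 reads per library, and counting error weighs most on *Sesn1*, which had the fewest. The 10 genes and all lists were chosen with earlier results of these data known. Of 228 list and marker symbols, 2 had no match. All 10 genes are named, and of each list the 2 called genes with the smallest p and up to 2 that moved against the rest, beside others said to be chosen later; 2 genes that these rules name are not reported here. Alternatives were other pseudocounts, filters and scalings, a replicate block, limma-voom on the recovered reads, and leaving out each library. Protein sequences were not analysed here.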

Additional observations from a re-analysis of the deposited data

How the results depend on the processing

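Over 46 results and 721 alternative values, 687 stayed the same and 0 reversed. A fold change stayed the same when it kept its direction and its side of the threshold, and a count when it stayed within 1.5 times. The summed sestrin level and the share of *Sesn2* stayed the same when their difference moved by less than the SD pooled over both groups. The calls of *Ddit4*, *Sesn2*, *Sesn3*, *Sesn1*, *Deptor*, *Ddit4l*, *Rragd* and *Flcn* held in all 16 alternatives, with log2 fold changes of 3.13 to 3.33, 2.69 to 2.85, -1.67 to -1.29, -0.64 to -0.43, -1.83 to -1.61, 0.71 to 0.96, 1.04 to 1.21 and 1.60 to 1.80 in that order. *Tsc1* lost its call at 0.19 under upper-quartile scaling and at 0.20 under upper-quartile scaling of the reads, an alternative chosen after seeing the data, and *Tsc2* gained one at -0.24 and -0.22. The added scaling moved the median of all genes to -0.12. The summed sestrin level was 109 FPKM higher with cyclophosphamide, and 102 and 103 FPKM higher under these scalings. The difference in the share of *Sesn2* was 56.8 percentage points in reads, since reads are not divided by exon length.

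Short lists moved by 1 or 2 genes, and the cause was not tested. The nutrient sensor genes called higher numbered 2 in place of 1 with the replicate block, total-read scaling and limma-voom. The GATOR2 and Rag genes called lower numbered 2 in place of 4 without a filter, and the PI3K and AKT genes called higher 3 in place of 5 under upper-quartile scaling. The glucocorticoid readouts called higher numbered 1 in place of 2 without a filter, with the replicate block and under both upper-quartile scalings. The TFEB readouts called lower numbered 1 in place of 2 without a filter, with the replicate block, under median-of-ratios and total-read scaling and in limma-voom.

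With each library left out in turn these counts were 1 to 2 for the nutrient sensors (2 without cyclophosphamide replicate 1 or untreated replicate 1), 2 to 4 for GATOR2 and Rag genes (2 without untreated replicate 3), 3 to 5 for PI3K and AKT (3 without cyclophosphamide replicate 3), 1 to 3 for glucocorticoid readouts (1 without cyclophosphamide replicate 1 or 3 or untreated replicate 1 or 3) and 1 to 2 for TFEB readouts (1 without any library other than untreated replicate 2). FOXO readouts called lower numbered 3 in place of 4 with any library left out. They were 3 also without a filter, with the replicate block, under median-of-ratios and total-read scaling and in limma-voom. The mTOR complex subunits called higher, 3 in the main fit, were 2 to 3 with a library left out. Their count was 2 without a filter, with a mean of at least 1 FPKM and with the replicate block. It was also 2 under total-read scaling and both upper-quartile scalings. Libraries with the same replicate number did not deviate together (correlations of -0.10, 0.02 and -0.02), so the numbers are not taken as pairs. The replicate block gave 4772 genes higher and 5165 lower, against 4932 and 5325 without it, and changed no call among the 10 genes. *Sesn1*, with the fewest reads, sets the limit of depth in the set.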
